A study of Macaca fascicularis with 11 samples.

Results

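GABRP, HEY1, TSPAN2, CA12, ANKRD1, LYPD1, SPNS2 and COX4I2 are late amnion genes of the cultured cynomolgus embryo, named by the study as markers of the later of its amnion populations. They were read as 8 of the 19367 genes of the deposited matrix, matched by symbol through the paper's supplementary tables to the Ensembl identifiers ENSMFAG00000003571 (GABRP), ENSMFAG00000039491 (HEY1), ENSMFAG00000039698 (TSPAN2), ENSMFAG00000040970 (CA12), ENSMFAG00000003868 (ANKRD1), ENSMFAG00000033924 (LYPD1), ENSMFAG00000043676 (SPNS2) and ENSMFAG00000040527 (COX4I2). The study picked them among the cell types of wild-type embryos of Day 14, so their wild-type levels across types are given here as a description. The study's choice did not rest on mutant libraries, but the genes were taken up here with results of all libraries known.

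Blastocysts of Macaca fascicularis were thawed, cultured in vitro in media with β-estradiol, progesterone and N-acetyl-L-cysteine, and dissociated at Day 10, Day 12 or Day 14 for droplet single-cell RNA sequencing. The wild-type group has 12 embryos in 6 libraries, 2 for each day. The ISL1 hypomorphic mutant group has 11 embryos in 5 libraries, 1 at Day 10 and 2 each at Day 12 and Day 14. ISL1 encodes a LIM homeodomain transcription factor expressed in the amnion. Mutants came from zygotes injected with SpCas9 (mRNA in the labels, protein in the methods) and guide RNAs to ISL1, and each mutant embryo carries a mixture of edits of different sizes, while no injection is given for wild-type embryos. A library pools 1 to 3 embryos and was taken as the replicate. At Day 14 the wild-type libraries of batch 1 and batch 2 pool 2 embryos each, and the mutant libraries pool 3 embryos (batch 1) and 1 embryo (batch 2). The labels number the batches within each genotype, so genotype and culture batch cannot be told apart.

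The amnion is the epithelium that closes over the epiblast and later bounds the fluid around the embryo. In primates it forms around implantation from the epiblast, next to the cells that will gastrulate, and it sends signals such as BMP4 to them. The members have varied roles. GABRP is the pi subunit of the type A GABA receptor, a chloride channel found mainly in epithelia, and SPNS2 exports the lipid signal sphingosine-1-phosphate. CA12 is a carbonic anhydrase of the cell surface, and COX4I2 is an alternative isoform of subunit IV of cytochrome c oxidase, the last complex of the respiratory chain. HEY1 is a transcriptional repressor downstream of Notch, and ANKRD1 is a nuclear and cytoplasmic protein whose gene is a target of YAP and TEAD. TSPAN2 is a tetraspanin, and LYPD1 is a lipid-anchored membrane protein of the Ly6 family.

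Each captured transcript in these libraries carries a unique molecular identifier (UMI). Between 36654977 and 164808415 UMIs were counted per library, and the median cell held between 10916 UMIs (mutant Day 14, batch 1) and 142180 UMIs. Cells were clustered without the members or ISL1 and named from other marker genes with the ending -like, by a rule written after the GABRP and ISL1 levels of the clusters had been seen. A level in CPM is a gene's share of all UMIs of 1 cell type in 1 library, scaled to a total of 1e6 UMIs. Sums of a type with fewer than 5 cells were left out, while values of single clusters are given with fewer. Amnion-like cells were 438 of 33330 cells, 126 of them wild type and 312 mutant. At Day 14 there were 53 (batch 1) and 33 (batch 2) of them in wild-type libraries, and 66 and 53 in mutant ones. All 10 amnion markers used for the name, TFAP2A and HAND1 among them, were detected in each of these 4 sums. The naming rule asks for at least 8 of them in a cluster, so their detection does not check the name. All epiblast and trophoblast markers used were detected in these sums as well. Of 33205 cell barcodes, 124 occurred in more than 1 library, and their cells were kept. In the wild-type Day 14 library of batch 2 the amnion-like cells had the lowest level of the 4 libraries for all 8 members, so values are given per library throughout.

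The targeted gene was not lower in mutant amnion-like cells of Day 14. ISL1 stood at 83.0 and 161 CPM in wild-type and at 217 and 187 CPM in mutant amnion-like cells of Day 14 (edgeR log2 difference 0.84, SE 0.37, adjusted p = 0.23). Both mutant levels lie above both wild-type levels, and the difference did not pass the test. In amnion-like cells of Day 12 it was at 165 CPM in 1 wild-type library and at 27.8 and 138 CPM in mutant ones. At Day 10 it was at 11.7 CPM in wild-type batch 2 and at 119 CPM in the mutant library. In extraembryonic mesenchyme (ExE-Mech-like) of Day 14 ISL1 was at 4.99 and 5.39 CPM in wild-type and 1.01 and 0.406 CPM in mutant libraries (edgeR log2 difference −2.80, SE 0.55, adjusted p = 0.11). The counts come from 3′ tags and do not show whether a transcript carries the edit, so they do not check the labels.

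Among the named types of Day 14, each taken as a whole, each member had its highest mean level in amnion-like cells, in both genotypes. Single trophoblast-like clusters given below stood above the amnion-like cells for ANKRD1 and, in part of the libraries, for HEY1 and SPNS2. Amnion-like cells of the 2 mutant Day 14 libraries were compared with the mean of the 5 other named types of the same libraries. All 8 members passed the test, with higher levels in amnion-like cells. GABRP entered the test only through its amnion-like sums, so it had to differ. Of 9361 genes tested, 501 (5.35%) were called higher (edgeR's quasi-likelihood test with the library as a block, false discovery rate 1%). The members were taken up as amnion genes with these libraries known, and the naming rule was written after GABRP and ISL1 levels were seen. The count of 8 members is therefore no support. The log2 difference was 7.21 (SE 0.48, adjusted p = 5.53e-07) for SPNS2, 6.40 (SE 0.53, adjusted p = 1.86e-06) for LYPD1 and 6.17 (SE 0.47, adjusted p = 1.37e-06) for CA12. No UMI of SPNS2 or CA12 was counted in mesoderm-like cells of either mutant library, so the size of their fitted differences depends on the prior count. The difference was 5.03 (SE 0.39) for HEY1, 4.67 (SE 0.32) for TSPAN2 and 4.09 (SE 0.30) for COX4I2, with adjusted p from 3.50e-07 to 9.46e-07. For GABRP the adjusted p was 6.15e-06, and its fitted difference is not given because its level in the other types was between 0 and 0.996 CPM. ANKRD1 was the member with the smallest difference, 2.16 (SE 0.38, adjusted p = 0.0015). In each mutant library alone, where no test was possible, all 8 differences were above 0, and that of ANKRD1 was 1.69 in batch 1 and 4.74 in batch 2. The ANKRD1 call was lost with amnion-like cells from a finer clustering (edgeR adjusted p = 0.12), with cells chosen by at least 2 UMIs of ISL1 (adjusted p = 0.17) and without the library block (adjusted p = 0.019). The 7 other members passed under each of these 3 settings.

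**Figure D1:**
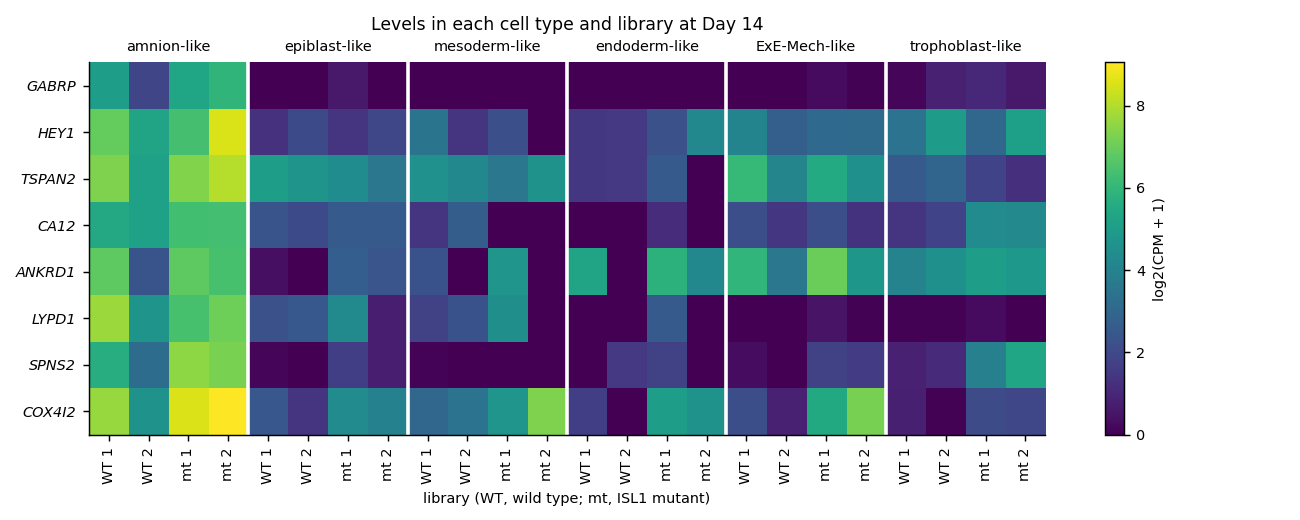
Level of each member, as log2(CPM + 1), in every named type of the 4 Day 14 libraries (WT, wild type; mt, ISL1 mutant; 1 and 2, batch). Each gene except ANKRD1 peaks in an amnion-like column, ANKRD1 is highest in the ExE-Mech-like cells of mt 1 (129 CPM), SPNS2 and CA12 also show in mutant trophoblast-like cells, and COX4I2 in the mutant columns of every type; the mesoderm-like sum of mt 2 has 5 cells.

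GABRP was at trace level in the other named types. Over all days 803 GABRP UMIs were counted. Of these, 209 fell in amnion-like cells, which are 1.31% of all cells, 137 in unnamed clusters and 445 in trophoblast-like cells, the most numerous type. Its Day 14 level in amnion-like cells was 31.9 and 2.73 CPM in the wild-type libraries of batch 1 and batch 2 and 38.5 and 59.2 CPM in the mutant ones, against 0.126 to 0.996 CPM in trophoblast-like cells of the 4 libraries. The level of 2.73 CPM rests on 2 UMIs. No GABRP UMI was counted in endoderm-like or mesoderm-like cells of Day 14, where 3 UMIs would have been between 0.22 CPM (288 wild-type mesoderm-like cells) and 23.6 CPM (5 mutant mesoderm-like cells). Epiblast-like cells of Day 14 held 1 GABRP UMI in all. In cluster 19 of the trophoblast-like cells GABRP stood at 4.98 and 3.58 CPM in the mutant libraries (14 and 7 UMIs).

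SPNS2 was the other gene of membrane transport. In amnion-like cells of Day 14 its level was 48.6 and 8.19 CPM in the wild-type libraries and 182 and 148 CPM in the mutant ones. The mutant values lie above both wild-type values. In trophoblast-like cells the level was 0.79 and 1.16 CPM in wild-type and 14.2 and 40.2 CPM in mutant libraries, and at most 3.4 CPM in the trophoblast-like cells of any library of Day 10 or Day 12. Among the trophoblast-like clusters of Day 14 the level was highest in cluster 31, which has the hormone gene CGA among its leading genes. There SPNS2 stood at 107 CPM (58 cells) and 404 CPM (189 cells) in the mutant libraries, against 1.48 CPM (57 cells, 2 UMIs) and 8.50 CPM (4 cells, 1 UMI) in wild-type cells. Cluster 31 held 55 of the 1173 SPNS2 UMIs of mutant trophoblast-like cells in batch 1 and 1344 of 3326 in batch 2. Other types held at most 2.47 CPM of SPNS2 at Day 14.

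CA12 and COX4I2 have enzymatic roles. The CA12 level in amnion-like cells of Day 14 was 43.5 and 35.5 CPM in wild-type and 78.6 and 81.1 CPM in mutant libraries, and the libraries of a genotype lay close together. In trophoblast-like cells it was 1.64 and 2.52 CPM in wild-type and 19.7 and 18.3 CPM in mutant libraries. Levels within clusters 5, 21 and 25, which all 4 libraries shared, are given as examples. In cluster 5 CA12 was at 0.179 and 0 CPM in wild-type and at 1.91 and 2.15 CPM in mutant cells. There 3 UMIs would be 7.48 CPM in wild-type batch 2. The part of cluster make-up in the gap was not tested. In cluster 21 (XAGE3, VGLL1 and S100P lead) CA12 stood at 1.65 and 0.973 CPM in wild-type and at 33.2 and 55.9 CPM in mutant cells, and in cluster 25 (HSD3B1 and S100P lead) at 2.96 and 2.88 CPM in wild-type and at 20.5 and 40.7 CPM in mutant cells. Cluster 19, of whose 434 cells 430 were mutant, held 64.4 and 60.4 CPM in the mutant libraries.

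COX4I2 stood at 199.9 and 23.2 CPM in wild-type and at 379.8 and 529 CPM in mutant amnion-like cells of Day 14. It was also the member with mutant levels above both wild-type levels in all 6 named types. In ExE-Mech-like cells (extraembryonic mesenchyme) it was at 3.55 and 0.789 CPM in wild-type and at 44.1 and 144 CPM in mutant libraries. Their clusters differed between genotypes. Cluster 11 held 1 and 2 wild-type and 567 and 15 mutant cells, and all 365 cells of cluster 27 (171 CPM of COX4I2) were from mutant batch 1. The part of this in the result was not tested. In epiblast-like cells COX4I2 was at 4.45 and 1.56 CPM against 19.6 and 14.6 CPM. Endoderm-like cells had 2.2 and 0 CPM in wild-type and 32.1 and 23.7 CPM in mutant libraries, the mutant values from 26 and 4 UMIs. In wild-type batch 2, 3 UMIs would be 4.68 CPM in epiblast-like and 5.42 CPM in endoderm-like cells, above its levels there. The mutant mesoderm-like sum of batch 2 has 5 cells. Of 9080 genes with at least 10 UMIs in each of the 6 types, 107 (1.18%) had this pattern of no overlap in every type, and no test goes with it. At Day 12 the 2 mutant libraries differed in ExE-Mech-like cells, with 3.12 and 33.5 CPM of COX4I2, against 0.676 CPM in the wild-type library that had such cells.

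HEY1 and ANKRD1 act in the nucleus, and both were found in other types beside the amnion. HEY1 stood at 119 and 38.2 CPM in wild-type and at 82.0 and 370.0 CPM in mutant amnion-like cells of Day 14, so that the genotypes overlapped. Its next highest mean level was in trophoblast-like cells (9.83 and 30.2 CPM in wild-type, 6.96 and 33.9 CPM in mutant libraries). In cluster 31 of these it stood at 261 and 536 CPM in wild-type and at 136 and 349.8 CPM in mutant cells. For ANKRD1 the levels in amnion-like cells were 111 and 4.09 CPM in wild-type and 110.4 and 84.2 CPM in mutant libraries. The order of its mean levels at Day 14 was amnion-like, ExE-Mech-like, endoderm-like and trophoblast-like in both genotypes, and each neighbour in this order overlapped with the next. Among trophoblast-like cells ANKRD1 was highest in cluster 5, with LAIR2 and ISM2, known from invasive trophoblast, among its leading genes, at 170.5 and 1446 CPM in wild-type (123 and 8 cells) and 305 and 303 CPM in mutant libraries. At Day 10 the wild-type endoderm-like cells had 199 and 146 CPM of ANKRD1, and the mutant ones 4.87 CPM in 1 library.

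TSPAN2 and LYPD1 are membrane proteins. TSPAN2 stood at 158 and 35.5 CPM in wild-type and at 161 and 265 CPM in mutant amnion-like cells of Day 14. It was also present in wild-type ExE-Mech-like (66.2 and 16.4 CPM), epiblast-like (32.8 and 24.9 CPM) and mesoderm-like cells (23.1 and 17.7 CPM), and in wild-type libraries its ExE-Mech-like levels overlapped with those of the amnion-like cells. LYPD1 was at 206 and 24.6 CPM in wild-type and at 85.3 and 131 CPM in mutant amnion-like cells, and at no more than 0.206 CPM in trophoblast-like cells of Day 14. The unnamed cluster 14 of Day 14 was led by SOX17, KHDC1L and LYPD1 itself, with TFAP2C among its top 10 genes. It had 711 CPM of LYPD1 in 4 wild-type cells and 441 CPM in 10 mutant cells of batch 1, and no UMI of GABRP, SPNS2, ANKRD1 or ISL1 was counted in either.

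Most members had lower mean levels in amnion-like cells of earlier days than at Day 14. HEY1 and ANKRD1 of wild-type batch 2 at Day 14 lay below the wild-type Day 12 levels given here, and the other members above them. In the wild-type Day 12 library of batch 1, 14 cells were left beside trophoblast-like and endoderm-like ones. They were too few to be clustered again, so none could be named amnion-like. In that of batch 2 (26 amnion-like cells) GABRP and SPNS2 were at 1.34 CPM (1 UMI each) and LYPD1 at 2.68 CPM (2 UMIs). There 3 UMIs would be 4.02 CPM. CA12 and COX4I2 were at 5.36 CPM each, TSPAN2 at 25.5 CPM, HEY1 at 40.2 CPM and ANKRD1 at 79.1 CPM. The mutant libraries of Day 12 were higher than this wild-type library of batch 2 for every member except ANKRD1. They had 13.5 and 15.0 CPM of GABRP, 27.8 and 34.8 CPM of SPNS2 and 122 and 164 CPM of COX4I2. With 1 wild-type library this difference was not tested. The 16 mutant amnion-like cells of Day 10 came from 1 library and held 15.3 CPM of GABRP, 107 CPM of CA12 and 126 CPM of TSPAN2, against 1.38, 2.76 and 51.7 CPM in the 11 wild-type cells of batch 2. That wild-type GABRP level rests on 2 UMIs, and the TSPAN2 level lies above that of wild-type batch 2 at Day 14. The CA12 level of the mutant Day 10 library lies above both mutant levels of Day 14.

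In mutant embryos the days could be compared with 2 libraries each. SPNS2 rose from Day 12 (27.8 and 34.8 CPM) to Day 14 (182 and 148 CPM), with a log2 difference of 2.48 (SE 0.28, edgeR adjusted p = 0.0053). It was the 1 of 8 members that passed, where 13 of 7624 genes (0.171%) were called higher. The make-up of the class differed between the days. At Day 12 cluster 0 held 19 and 82 of its mutant cells, with 109 and 37.8 CPM of SPNS2, and cluster 4 held 70 and 6, with 1.88 and 0 CPM. Summed over the list, ExE-Mech markers had 280 and 410 CPM in the Day 12 libraries against 1171 and 1152 CPM in those of Day 14, and epiblast markers 3508 and 2252 CPM against 872 and 1047 CPM, with 10 of 10 markers of each list detected in all 4 libraries. Their part in the result was not tested. With the batch number as a block it kept its call (adjusted p = 0.0067), among 40 genes. DESeq2 called SPNS2 and COX4I2, with 75 of its 98 genes higher, against 13 of the 15 genes that edgeR called. COX4I2 had an edgeR difference of 1.79 (SE 0.33, adjusted p = 0.028), GABRP 1.91 (SE 0.40, adjusted p = 0.044) and ANKRD1 1.86 (SE 0.45, adjusted p = 0.068). All 8 differences were above 0, with a median of 1.60, against 50.3% above 0 and a median of 0.00633 over all genes tested. Of the 20 genes of the amniotic epithelium list given below, 19 were above 0 as well (median 0.81). The members were taken up as late amnion genes with these libraries known, so their shared direction is no support. At a clustering resolution of 1.2 in place of 0.8 the amnion-like class of Day 14 had 25 and 29 mutant cells in place of 66 and 53, with 3.91 and 22.7 CPM of GABRP, and the SPNS2 call was lost (edgeR adjusted p = 0.13), while with the unnamed clusters of amnion markers added 6 members passed, where 322 genes were called. Leaving out 1 library gave between 1 and 5 members called, SPNS2 among them each time. There were 4 without either Day 12 library (164 genes called without batch 1 and 283 without batch 2), 5 without the Day 14 library of batch 1 (380 genes) and 1 without that of batch 2 (89 genes). In these fits, as in all below that leave out 1 library, the library left alone in its group is assumed to vary like those of the other group.

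**Figure D2:**
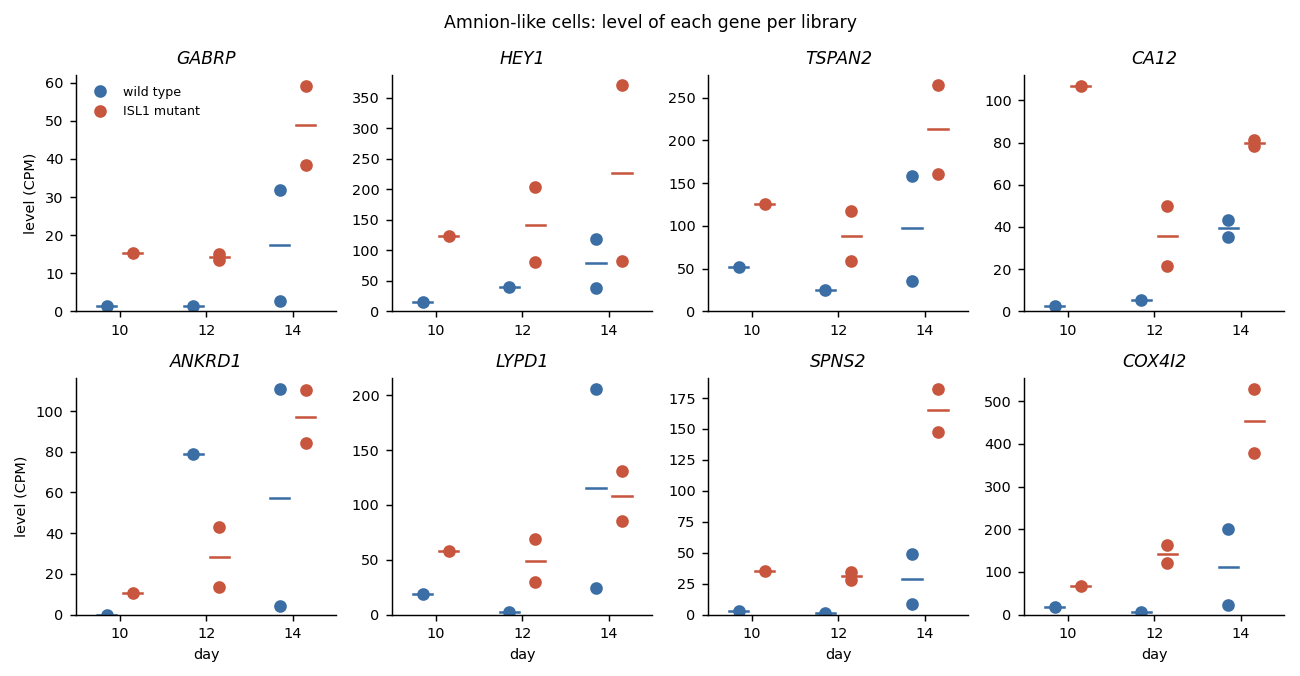
Level of each member (CPM, linear axis from 0) in amnion-like cells by day; a point is 1 library with at least 5 such cells and a line the mean of the group. SPNS2 and COX4I2 are highest in the mutant libraries of Day 14, and the lower of the wild-type points of Day 14 is batch 2 in every panel.

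The amnion-like cells of Day 14 were not uniform. They come from a second clustering, of the cells left after trophoblast-like, endoderm-like and ExE-Mech-like clusters were set aside, which numbers its own clusters. Cluster 1 held 53 of the 86 wild-type and 98 of the 119 mutant amnion-like cells, and cluster 10 the others. All 8 members had a higher level in cluster 1 than in cluster 10 in both wild-type libraries. The same held in the mutant libraries, except for HEY1 in batch 1 (74.8 against 98.2 CPM) and CA12 in batch 2 (76.1 against 97.4 CPM). GABRP stood at 60.6 and 6.17 CPM in wild-type and at 55.5 and 73.3 CPM in mutant cells of cluster 1, and at 2.06, 0, 0 and 13.3 CPM in cluster 10 of the same libraries, which holds 18, 15, 17 and 4 cells there. COX4I2 was at 373, 33.9, 499 and 641 CPM in cluster 1 and at 20.6, 14.7, 109 and 164 CPM in cluster 10. Clusters are built from the same cells, so these gaps carry no test. SPNS2 was at 92.4 and 18.5 CPM in wild-type and 215 and 181 CPM in mutant cells of cluster 1, and at 3.09 and 0 CPM against 109 and 39.9 CPM in cluster 10. TSPAN2 was at 236.5 and 61.7 CPM in wild-type and 227 and 326 CPM in mutant cells of cluster 1, and at 77.3 and 14.7 CPM against 10.9 and 66.4 CPM in cluster 10. The genotypes thus overlapped within both clusters for TSPAN2 and for GABRP, and within neither for SPNS2.

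Cells with most of the members were also found in clusters 4 and 7 of Day 14, which were left unnamed because the ExE-Mech markers had the highest score in them. Of their 188 cells 180 came from the mutant library of batch 1. In its cells GABRP stood at 58.8 (cluster 4) and 113 CPM (cluster 7), TSPAN2 at 493 and 641 CPM, COX4I2 at 764 and 939.6 CPM, SPNS2 at 264 and 235 CPM, and ISL1 at 129.7 and 85.9 CPM. These cells were shallow in cluster 4, with a median of 3718 UMIs. Adding unnamed clusters with amnion markers moved the mean mutant TSPAN2 level at Day 14 from 213 to 301.0 CPM and that of ANKRD1 from 97.3 to 76.0 CPM.

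**Figure D3:**
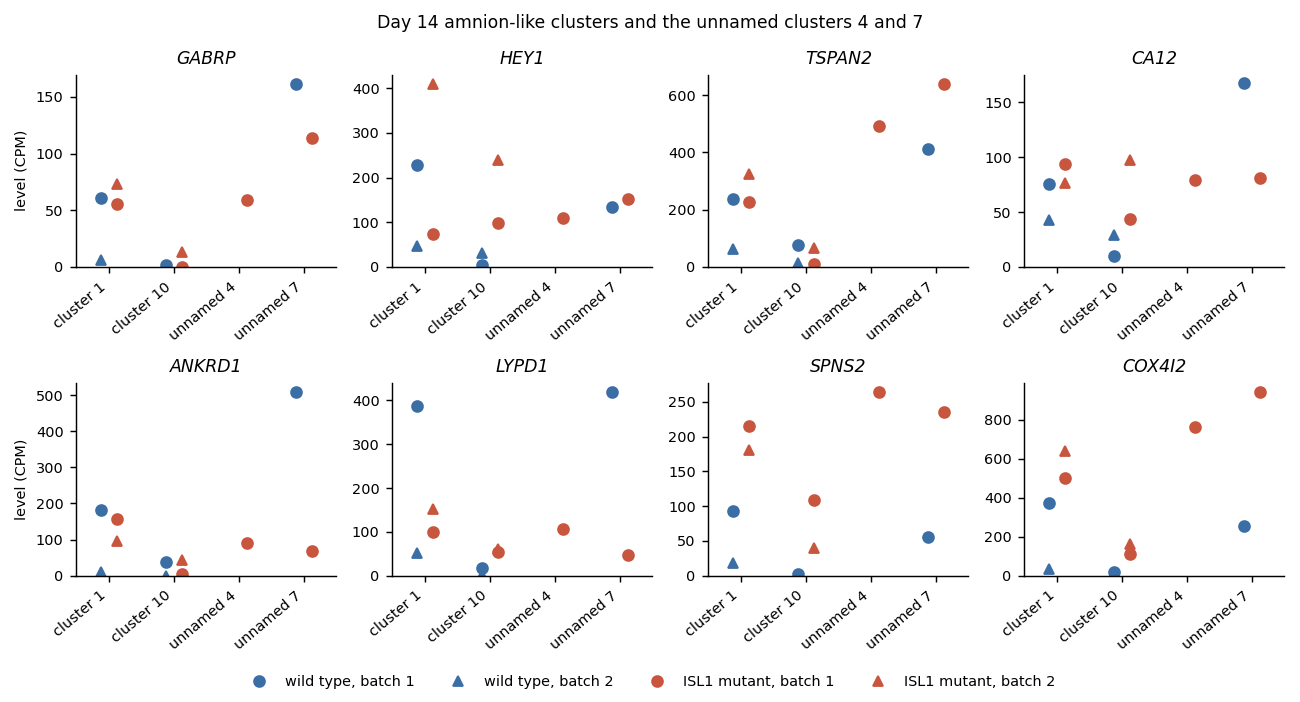
Level of each member (CPM, linear axis from 0) in the Day 14 amnion-like clusters 1 and 10 and the unnamed clusters 4 and 7, by library; sums of fewer than 4 cells are left out. Cluster 1 is above cluster 10 for GABRP in each library, and the mutant cells of clusters 4 and 7 have the highest mutant levels of TSPAN2 and COX4I2; the wild-type points of cluster 7 rest on 4 cells.

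The study asked how loss of ISL1 acts on the amnion, and mutant and wild-type amnion-like cells of Day 14 were compared for it. By staining, the study saw no specific GABRP protein in the amnion region of mutant Day 14 embryos, while the levels here are of RNA. It also reported several epithelium genes as lower in mutant cells of its later amnion population, in a test over cells. SPNS2, COX4I2, TSPAN2, CA12 and GABRP had both mutant levels above both wild-type levels, a pattern that 24.7% of 10348 genes with at least 10 UMIs shared. For TSPAN2 and GABRP it was absent within each of clusters 1 and 10. None of the 8 members passed the test, where 25 of 6585 genes (0.38%) were called and 1426 had an unadjusted p under 0.05. The largest difference was that of SPNS2, 2.50 on the log2 scale (SE 0.56, edgeR adjusted p = 0.048, unadjusted p = 0.0016), followed by COX4I2 with 2.12 (SE 0.72, adjusted p = 0.14), HEY1 with 1.68 (SE 0.71, adjusted p = 0.21), GABRP with 1.46 (SE 0.70, adjusted p = 0.27), TSPAN2 with 1.24 (SE 0.58, adjusted p = 0.26) and CA12 with 1.11 (SE 0.33, adjusted p = 0.10). LYPD1 differed by 0.01 (95% interval −1.60 to 1.62), an interval that leaves room for a change of either sign. SPNS2, GABRP and ANKRD1 entered this test only through their mutant libraries, since the filter asks for about 11.8 CPM in 2 libraries, so the direction of their differences is no support.

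These differences depended on which wild-type library was used. Without batch 1 the SPNS2 difference was 4.37 (edgeR adjusted p = 0.030), with 0 genes called. Without batch 2 it was 1.81 and passed (adjusted p = 0.0038), among 298 genes. For GABRP the difference was 4.21 without batch 1 and 0.72 without batch 2, which held 2.73 CPM against 31.9 CPM in batch 1. ANKRD1 turned from 0.75 to −0.15 without batch 2, and to −1.04 with cells chosen by ISL1. Without the mutant library of batch 2 the HEY1 difference was −0.02, and 4 genes were called. DESeq2 called SPNS2 (adjusted p = 0.0034) among 119 genes, and edgeR with the batch number as a block called it among 175 genes. Both fits used the filter that SPNS2 passed only through its mutant libraries, so these calls are no support. The mutant amnion-like cells differed from the wild-type ones in the markers of other types as well. Summed over the list, ExE-Mech markers stood at 263 and 303 CPM in wild-type and at 1171 and 1152 CPM in mutant cells, with 9 and 5 of 10 markers detected in wild-type and 10 of 10 in mutant libraries, and POSTN at 0 in both wild-type libraries. Trophoblast markers stood at 103 and 115 CPM against 756 and 629 CPM (11 of 11 detected in all 4), and epiblast markers at 2282 and 2970 CPM against 872 and 1047 CPM (10 of 10 in all 4). Amnion markers stood at 2558 and 2634 CPM in wild-type and at 4261 and 3226 CPM in mutant cells. Their part in the result was not tested. A change in the mix of amnion cells and a change per cell cannot be told apart in such sums.

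Outside the amnion, mutant and wild-type cells of Day 14 were compared type by type. In trophoblast-like cells 7 members were tested, and CA12 and SPNS2 had the largest differences, 3.24 (SE 0.27, 95% interval 2.54 to 3.94) and 4.89 (SE 0.67, 95% interval 3.15 to 6.64) on the log2 scale. Neither passed edgeR's test over all genes (adjusted p = 0.30 for each, unadjusted p = 8.91e-05 and 0.000904), in which 0 of 13887 genes (0%) were called and 1719 had an unadjusted p under 0.05. DESeq2 called both, with 241 genes in all. TSPAN2 had both mutant levels below both wild-type levels, as 19.9% of 15873 genes did, with a log2 difference of −1.53 (SE 0.37, adjusted p = 0.35), at 4.87 and 6.67 CPM in wild-type and 2.54 and 1.39 CPM in mutant cells.

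In the other types no member passed edgeR's test. COX4I2 had a log2 difference of 5.47 (SE 0.89, adjusted p = 0.073) in ExE-Mech-like cells, where 1 of 11930 genes (0.00838%) was called. Part of the mutant cells of this type lay in clusters with few or no wild-type cells, and the effect of this was not tested. In epiblast-like cells 60 of 7816 genes (0.768%) were called by edgeR, and in endoderm-like and mesoderm-like cells 0 of 6263 and 0 of 6204 genes (0%). At an unadjusted p under 0.05 there were 428 and 496 genes in the latter, and DESeq2 called 25 and 30. COX4I2 entered the tests of these 3 types only through its mutant libraries, since the filter on low counts asks for about 6.11 CPM (epiblast-like), 14.7 CPM (endoderm-like) and 12.7 CPM (mesoderm-like) in 2 libraries. Its fitted differences there are therefore not given. In ExE-Mech-like cells DESeq2 called 241 genes, COX4I2 among them and 210 of them higher. With 1 library left out, COX4I2 passed in ExE-Mech-like cells without wild-type batch 1 (edgeR adjusted p = 0.0081, 45 genes called). In the 3 types that it entered only through mutant libraries, COX4I2 also came under the threshold with 1 library left out (epiblast-like and endoderm-like cells without wild-type batch 2, mesoderm-like cells without any 1 of wild-type batch 1, wild-type batch 2 and mutant batch 1), as did ANKRD1 in endoderm-like cells without wild-type batch 1. ANKRD1 entered that test in the same way, and these cases are no support.

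**Figure D4:**
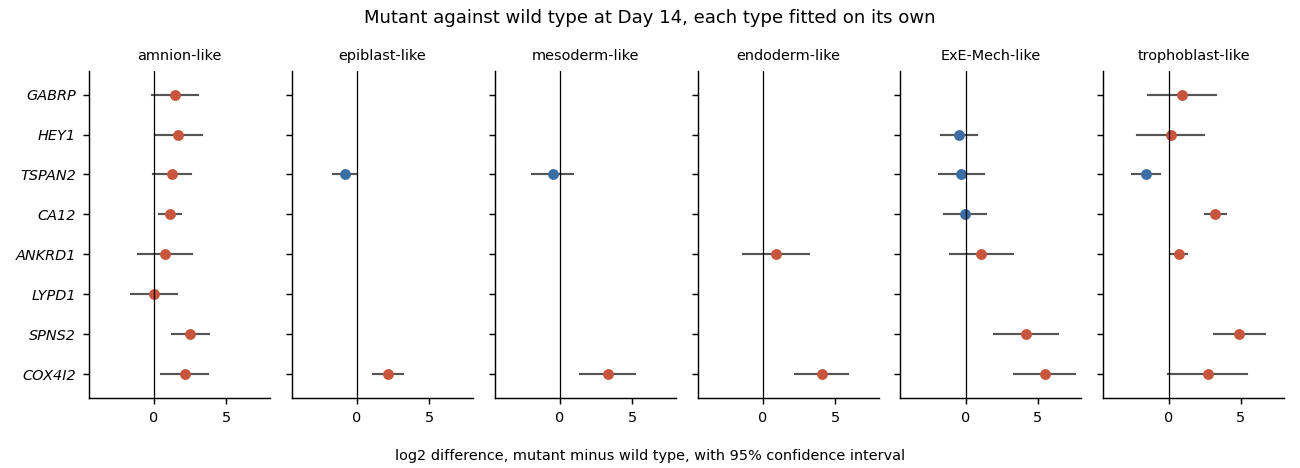
Log2 difference between mutant and wild-type cells of Day 14 for each member that could be tested in a type, with its 95% confidence interval from edgeR. None of the points passed the false discovery rate of 1%, and genes that entered a test only through the mutant libraries (COX4I2 in all types but amnion-like and ExE-Mech-like, SPNS2 in amnion-like and ExE-Mech-like, GABRP in amnion-like, ANKRD1 in amnion-like and endoderm-like cells) could hardly lie low, nor TSPAN2 high in mesoderm-like cells, which it entered through wild type.

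The mutant effect in amnion-like cells was then set against that in trophoblast-like cells. None of the 8 members passed the test of this difference, where 1 of 13025 genes (0.00768%) was called and 1377 had an unadjusted p under 0.05. CA12 had a smaller effect in amnion-like than in trophoblast-like cells, by 2.33 on the log2 scale (95% interval of the signed difference −3.25 to −1.41, edgeR adjusted p = 0.086), and TSPAN2 a larger one, by 2.78 (95% interval 1.08 to 4.47, adjusted p = 0.23). DESeq2 called CA12 in this comparison, among 68 genes of which 43 had the larger value in amnion-like cells. Without wild-type batch 1, HEY1, TSPAN2 and ANKRD1 passed (358 genes called), without wild-type batch 2, TSPAN2, CA12 and SPNS2 passed (169 genes), and without mutant batch 1, TSPAN2 passed (102 genes). TSPAN2 was above 0 in these 3 fits, at 4.23, 1.77 and 3.70.

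In wild-type trophoblast-like cells, Day 14 was compared with Day 10. None of the 8 members passed, where 4 of 12597 genes (0.0318%) were called and 2933 had an unadjusted p under 0.05. LYPD1 was at trace level on both days, with 0.555 and 1.49 CPM at first and 0.0474 and 0.0388 CPM later (log2 difference −4.41, SE 0.80, edgeR adjusted p = 0.052). ANKRD1 was at 2.71 and 0.209 CPM at Day 10 and at 15.4 and 22.6 CPM at Day 14 (3.66, SE 1.08, adjusted p = 0.12), and TSPAN2 at 1.88 and 1.28 CPM and then at 4.87 and 6.67 CPM (1.83, SE 0.41, adjusted p = 0.074). Most ANKRD1 UMIs of Day 14 came from cluster 5, with 1902 UMIs in 123 cells of batch 1 and 580 UMIs in 8 cells of batch 2. LYPD1 entered this test only through its Day 10 libraries and ANKRD1 only through its Day 14 libraries. DESeq2 called these 3 members, with 1350 genes in all, 750 of them higher, against 1 of the 4 genes that edgeR called. With the batch number as a block edgeR called 0 genes, and without the Day 14 library of batch 2 it called 298, none of them a member.

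Single cells were compared after each was thinned to 5000 UMIs, since the libraries differ in depth. A GABRP UMI was found in 17.3% (9 of 52 cells, exact 95% interval 8.23% to 30.3%) and 3.03% (1 of 33, 0.0767% to 15.8%) of the wild-type amnion-like cells of Day 14 and in 10.2% (5 of 49, 3.40% to 22.2%) and 21.6% (11 of 51, 11.3% to 35.3%) of the mutant ones. Without thinning these shares were 37.7%, 6.06%, 13.6% and 43.4%. In trophoblast-like cells the thinned share was between 0.0422% and 0.531%. The median depth of amnion-like cells was 32253 and 19660 UMIs in wild-type and 7399 and 12687 UMIs in mutant libraries, and that of trophoblast-like cells 48684, 27569, 11452 and 27640 UMIs. An SPNS2 UMI was found in 15.4% and 3.03% of wild-type and in 51.0% and 43.1% of mutant amnion-like cells, against 0.253% and 0.231% of wild-type and 6.83% and 12.9% of mutant trophoblast-like cells. Shallower cells were left out, of the amnion-like cells 17 of 66 in the mutant library of batch 1 and at most 2 in each of the others. The trophoblast-like shares rest on 2367 of 2399 and 867 of 886 wild-type cells and on 5840 of 6552 and 2635 of 2715 mutant cells. The intervals cover counting error only.

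In part of the amnion-like cells several members were seen in the same cell. At 5000 UMIs, at least 4 of the 8 members were detected in 38.5% and 0% of wild-type and in 28.6% and 49.0% of mutant amnion-like cells of Day 14. Such cells were 12.5% and 8.24% of the mutant amnion-like cells of Day 12. In the unnamed clusters 4 and 7 of the mutant Day 14 library of batch 1 they were 43 (65.2%) of the 66 cells with at least 5000 UMIs. Most cells of these 2 clusters were shallower and were left out. Among the epiblast-like, mesoderm-like, endoderm-like, ExE-Mech-like and trophoblast-like cells of Day 14 there were 2 such cells in all. These shares were not set against those that the members' separate shares would give. In wild-type batch 1, HEY1 was in 9 of 9 amnion-like cells with GABRP and 14 of 43 others, TSPAN2 in 3 of 9 and 18 of 43. In mutant batch 2, HEY1 was in 8 of 11 cells with GABRP and 33 of 40 others, TSPAN2 in 10 of 11 and 19 of 40.

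**Figure D5:**
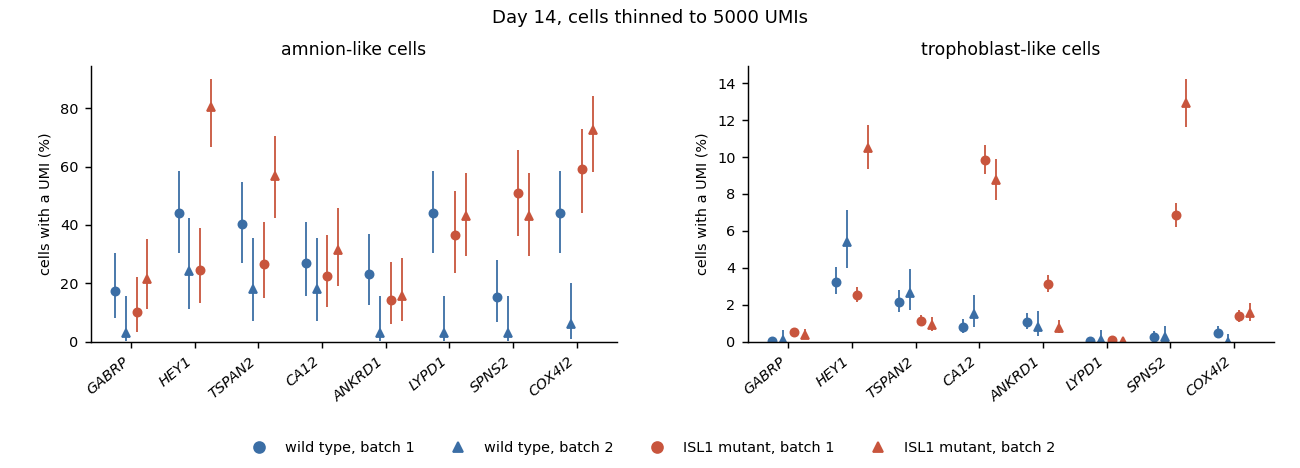
Share of amnion-like (left) and trophoblast-like cells (right) of Day 14 with at least 1 UMI of each member after thinning to 5000 UMIs, by library, with exact 95% binomial intervals; the axes differ in range. SPNS2 and CA12 are seen in more mutant than wild-type trophoblast-like cells, and GABRP stays below 0.6% there.

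Amnion-like cells with and without ISL1 were also compared. In wild-type batch 1, cells with at least 2 UMIs of ISL1 had more of every member than the other amnion-like cells, with 47.1 against 14.2 CPM of GABRP and 285 against 102 CPM of COX4I2. In wild-type batch 2 GABRP stood at 3.44 against 0 CPM, HEY1 at 37.9 against 39.5 CPM and COX4I2 at 20.7 against 32.9 CPM, and the other 5 members were higher in the cells with ISL1. In the mutant libraries GABRP was at 37.2 against 40.0 CPM in batch 1 and at 56.3 against 67.7 CPM in batch 2. ANKRD1 had its lower levels in the mutant cells with ISL1, with 27.9 against 207 CPM in batch 1 and 47.8 against 187 CPM in batch 2. The cells on either side of the limit were not matched in depth, and these values are a description with no test.

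Over the 64 sums of a library and a type, unnamed cells included, the members followed each other to different degrees. The correlation of log2(CPM + 5) with GABRP was 0.92 for SPNS2, 0.87 for LYPD1, 0.85 for CA12, 0.78 for HEY1, 0.76 for TSPAN2, 0.75 for COX4I2 and 0.35 for ANKRD1. Symbols came only from the study's supplementary tables, which include its marker and differential genes, and genes without one were not ranked. Among 1012 other genes with a symbol, those most like GABRP were WNT6 (0.89), VTCN1 (0.87), GDNF (0.87), NPR3 (0.86) and NTRK2 (0.84). Those most like the mean of the 8 members were WNT6 (0.91), GDNF (0.85), VTCN1 (0.84), NPR3 (0.83) and COL2A1 (0.83). Sums of 1 library share its depth and embryos, so these values are descriptive.

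The wider amniotic epithelium list, 20 genes that the study also picked on these samples, was also compared between types. In mutant embryos 17 of its 20 genes were higher in amnion-like cells than in the mean of the other types, where 5.35% of all 9361 genes tested were, and none was lower, among them WNT6, the co-inhibitory ligand VTCN1, the growth factor GDNF and the keratins KRT18 and KRT8. WNT6, VTCN1 and GDNF entered the test only through amnion-like cells, so the count is no support. The highest levels in amnion-like cells of Day 14 were those of KRT18, with 6376 and 1854 CPM in wild-type and 4582 and 6230 CPM in mutant libraries. No gene of the list passed in mutant against wild-type cells of any type or between days. Since the list was picked on these samples, its direction is not independent evidence.

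Relatives of the members by family or pathway could be followed only in part, since 8 of the 29 listed genes could be matched to an identifier. Matching used only the paper's supplementary tables, and the other genes were not looked up elsewhere. In mutant amnion-like cells 1 of them, the carbonic anhydrase CA9, was higher than the mean of the 5 other named types (edgeR log2 difference 2.52, SE 0.40, adjusted p = 0.000646). Epiblast-like cells of the mutant libraries held 90.025 and 105 CPM of it. CA9 stood at 12.1 and 24.6 CPM in wild-type and at 68.6 and 113 CPM in mutant amnion-like cells (2.55, SE 0.48, adjusted p = 0.026). CA4, another carbonic anhydrase, had the opposite direction, with 100.2 and 132 CPM in wild-type and 10.0 and 15.6 CPM in mutant cells (−2.99, SE 0.41, adjusted p = 0.011), and entered the test only through its wild-type libraries. NDUFA4L2, a mitochondrial protein related to the NDUFA4 subunit, stood in epiblast-like cells at 0.303 and 0 CPM in wild-type and at 43.1 and 60.5 CPM in mutant libraries, and in amnion-like cells at 0.506 and 0 CPM against 20.1 and 78.0 CPM. It entered these tests only through its mutant libraries, so its fitted differences and its call in epiblast-like cells are no support.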

How the data were processed

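The deposited values are UMI counts per gene and cell, taken as 10x 3′ libraries. Reads were mapped by the authors to Macaca_fascicularis_5.0 (Ensembl annotation) in Cell Ranger 3.1.0, who filtered cells on genes and mitochondrial share, and removed free RNA with SoupX. The corrected values that the authors deposited are estimated counts, here whole numbers, and were used throughout. The deposited uncorrected counts were an alternative. Correction lowers counts of RNA shared between cell types.

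The members and lists were chosen with earlier results of these data known, and the rule that names clusters was written after clusters and their marker, ISL1 and GABRP levels were seen. Clusters came from Seurat 5.3.0 (5000 features, 30 dimensions, resolution 0.8), without the members, the lists below or ISL1 as features. Clusters of each day with at least 8 markers of the trophoblast, endoderm or ExE-Mech list, and of no other of these 3, took that name (a marker counts when seen in 25% of cells). The other cells were clustered again and named from the highest marker score, with at least 8 markers and, outside the epiblast, a score of at least 1. The 14 such cells of the wild-type Day 12 library of batch 1 were too few for this and stayed unnamed. No doublet caller was run, and clusters of mixed markers were left unnamed, so names may differ from those of the study. The 8 members and ISL1 are always named. From the amniotic epithelium and relatives lists, the plan was to name the genes that passed and the 4 highest in amnion-like cells. Only some of these are named. CA4 and the genes of clusters were named after their values were seen.

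UMIs were summed per library and type and tested with edgeR 4.0.16 (TMM, filterByExpr, quasi-likelihood, two-sided, Benjamini-Hochberg over all genes tested, false discovery rate 1%) in R 4.3.3. Libraries pool embryos, so p-values measure the spread between libraries where the library is not a block. With the library as a block (amnion-like against other types, and the difference between effects) they measure how gaps between types vary between libraries. These 2 fits have 5 and 2 residual degrees of freedom, to which edgeR adds from other genes. DESeq2 1.42.0 was an alternative, with no low-count filter, leaving out libraries, blocks, clustering resolution 1.2 and cells chosen by ISL1 as others. The scripts were tested on simulated data. The days of a genotype carry the same batch numbers, and the labels do not say whether they share a batch. Between days paired by number, the correlation of deviations was 0.110 for wild-type trophoblast-like and 0.173 for mutant amnion-like cells. Library totals are 36654977 to 164808415 UMIs, and intervals of shares (95%, exact) and floors (3 UMIs) cover counting error only. Sequences and genome positions were not used here.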

Additional observations from a re-analysis of the deposited data

Results flagged for a closer look

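TSPAN2 and CA12 had mutant levels above both wild-type levels in 1 or more cell types of Day 14 and below them in another. Such gaps are common: of all genes with at least 10 UMIs, 24.7% in amnion-like, 22.1% in epiblast-like and 26% in trophoblast-like cells had both mutant levels above, and 23.7% in epiblast-like, 19.9% in trophoblast-like and 24.9% in mesoderm-like cells had both below. The differences between types given here were not tested. Each is the gap between the log2 ratios of 2 types, a ratio being the mean mutant CPM + 1 over the mean wild-type CPM + 1. TSPAN2 had a log2 ratio of 1.13 in amnion-like and of −0.84 in epiblast-like cells, a gap of 1.97. In amnion-like cells it stood at 158 and 35.5 CPM in wild-type and at 161 and 265 CPM in mutant libraries, and in epiblast-like cells at 32.8 and 24.9 CPM against 20.2 and 11.1 CPM. Its mutant levels were also below both wild-type levels in trophoblast-like cells, and its difference in effect between amnion-like and trophoblast-like cells did not pass the test given above.

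CA12 had a log2 ratio of −2.17 in mesoderm-like cells, where it stood at 1.61 and 5.38 CPM in wild-type libraries and no CA12 UMI was counted in the 22 and 5 mutant cells. In these sums 3 UMIs would have been 10.98 and 23.6 CPM, above both wild-type levels, so a difference was not detectable at this depth. The ratio is set by the added 1 CPM. The gap to its ratio of 1.00 in amnion-like cells was 3.17, the gap to 0.36 in epiblast-like cells 2.53, and that between mesoderm-like and trophoblast-like cells, at 2.70, was −4.87. No group has 4 libraries, so single libraries could not be tested as outlying.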

How the results depend on the processing

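No result turned its sign while called, and the cause of the shifts below was not tested except where the setting itself changes which cells or libraries enter. Depth limits GABRP, whose wild-type batch 2 level rests on 2 UMIs, and with 2 libraries a side single libraries decide many calls. Counts are given as members called, then genes called, at a false discovery rate of 1%.

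Amnion-like mutant against wild type gave 0 and 25. DESeq2 gave 1 and 119, no low-count filter 3 and 477, cells with at least 2 UMIs of ISL1 0 and 6, resolution 1.2 0 and 2, added unnamed clusters 0 and 14, and leaving out 1 library 0 to 1 and 0 to 298. The labels do not say whether a batch number stands for the same batch in both genotypes. Correlations of deviations between them were −0.119 in amnion-like cells and −0.0866 to 0.139 in the 5 other types. With the batch numbers as a block 1 member (SPNS2) and 175 genes were called, and with the numbers crossed, chosen after seeing the data, 3 and 288. The filter admits SPNS2 only through its mutant libraries, so its calls with DESeq2 or the block are no support.

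Trophoblast-like mutant against wild type gave 0 and 0, DESeq2 2 and 241, and leaving out 1 library 0 and 0. ExE-Mech-like cells gave 0 and 1, DESeq2 1 and 241, no filter 1 and 308, the block 0 and 5, leaving out 1 library 0 to 1 and 0 to 79. Endoderm-like cells gave 0 and 0, DESeq2 0 and 25, no filter 1 and 115, leaving out 1 library 0 to 1 and 5 to 127. Epiblast-like cells gave 0 and 60, DESeq2 0 and 101, no filter 1 and 313, uncorrected counts 0 and 13, the block 1 and 262, leaving out 1 library 0 to 1 and 106 to 270. Mesoderm-like cells gave 0 and 0, DESeq2 0 and 30, no filter 1 and 89, leaving out 1 library 0 to 1 and 3 to 72.

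Mutant amnion-like cells against other types gave 8 and 542, no filter 8 and 1043, and resolution 1.2 7 and 278. Leaving out 1 library leaves no residual degrees of freedom there. Wild-type trophoblast-like Day 14 against Day 10 gave 0 and 4, DESeq2 3 and 1350, no filter 0 and 691, the block 0 and 0, leaving out 1 library 0 and 0 to 298. Mutant amnion-like Day 14 against Day 12 gave 1 and 15, DESeq2 2 and 98, no filter 5 and 445, uncorrected counts 1 and 28, ISL1 cells 2 and 81, resolution 1.2 0 and 1, added clusters 6 and 322, the block 1 and 40, leaving out 1 library 1 to 5 and 89 to 380. The effect in amnion-like against trophoblast-like cells gave 0 and 1, DESeq2 1 and 68, no filter 3 and 289, uncorrected counts, ISL1 cells, added clusters and no replicate block 0 and 0 each, leaving out 1 library 0 to 3 and 6 to 358. With DESeq2, higher calls went from 13 of 15 to 75 of 98 in Day 14 against Day 12 of mutant amnion-like cells, from 1 of 4 to 750 of 1350 in wild-type trophoblast-like cells, from 1 of 1 to 210 of 241 in ExE-Mech-like cells and from 1 of 1 to 43 of 68 for the difference between effects.

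Resolution 1.2 moved mean mutant Day 14 levels from 48.9 to 13.3 CPM (GABRP), 213 to 78.9 (TSPAN2), 79.9 to 68.0 (CA12), 97.3 to 63.5 (ANKRD1), 165 to 107 (SPNS2) and 454 to 223 (COX4I2), and wild-type CA12 from 39.5 to 29.5. Mutant CA12 was 75.1 CPM with uncorrected counts, and added clusters gave 301.0 (TSPAN2), 75.2 (CA12) and 76.0 (ANKRD1). Without thinning, mean shares of wild-type cells became 21.9% (GABRP), 61.8% (HEY1), 64.4% (TSPAN2), 55.4% (CA12), 24.9% (SPNS2) and 59.7% (COX4I2), and of mutant cells 28.5% (GABRP), 46.5% (CA12), 25.9% (ANKRD1), 49.5% (LYPD1), 69.7% (SPNS2) and 78.0% (COX4I2). Of 614 refitted log2 differences of the members and ISL1, 535 stayed on their side of the threshold or within their error, 63 newly passed and 4 no longer passed. The other 12 belong to single mutant libraries against other types, where no test was possible, and all were above 0.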
